A study of Mus musculus with 6 samples.

Results

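The carbonic anhydrase genes Car2, Car3, Car4, Car5b, Car8, Car9, Car12 and Car13 were followed in 3T3-L1 cells, a preadipocyte line of mouse origin that is widely used to grow fat cells in the dish. Their transcripts were read on 6 one-colour oligonucleotide arrays, 3 from untreated (control) cultures and 3 from cultures treated with resveratrol, a polyphenol found in grapes. All probe sets annotated to exactly 1 of these 8 genes were taken, which gave 19 probe sets, for 8 of the 18193 genes that the array names by a probe set of their own. The genes were chosen by, among other things, their intensities in this same comparison of control with resveratrol, so the differences between their control and resveratrol values are given as a description, with standard errors and without p-values, and nothing is read from how many of them passed a test. The labels name 1 cell line and give no dose, length of treatment or state of differentiation. No label says whether the 3 cultures of a group were grown on separate occasions, so the spread between them may be technical. Each SD measures only this spread. Each SE comes from the limma fit, which moderates it by the variance of probe sets of similar intensity.

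Carbonic anhydrases turn carbon dioxide and water into bicarbonate and a proton and back, and so take part in pH control, gas exchange and the supply of bicarbonate to carboxylases. The family has cytosolic forms (Car2, Car3, Car13), mitochondrial forms (Car5b), forms anchored at the outside of the plasma membrane (Car4, Car9, Car12) and related proteins without catalytic activity (Car8). In fat cells Car3 is a very abundant cytosolic protein, and the mitochondrial forms are known for supplying bicarbonate to pyruvate carboxylase.

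The cells carried fat cell transcripts in both groups. Fabp4, the fatty acid carrier of adipocytes and the brightest adipocyte marker, averaged 11745 ± 2843 (SD, n = 3) over the control arrays and 9926 ± 1575 over the resveratrol arrays, on the linear intensity scale. In control the summed intensity of the 5 adipocyte markers on the array lay between 24217 and 36985, in treated cultures between 22370 and 27546. These ranges overlap, but all 5 markers had lower treated means. Cidec averaged 4193 in control and 2819 in treated cultures, and Retn 6719 and 4577, while Lep was too dim to be tested. Dlk1, the brightest preadipocyte marker, had 3854 ± 306 and 4065 ± 280, and the summed level of the 3 preadipocyte markers lay between 5282 and 5679 and between 5114 and 5996. Signal of the 18 control spike probe sets was higher on control replicates 1 and 2 and resveratrol replicate 1 than on the other arrays.

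Across all 27022 probe sets bright enough to be tested, 8.17% were called different, 4.22% lower and 3.95% higher with resveratrol. A probe set is called here when its adjusted p in the limma fit, with Benjamini-Hochberg adjustment over all probe sets tested, was below 0.05. The counts behind these shares, 1141 lower and 1068 higher, moved with the arrays used: without control replicate 2 they were 659 and 517, without resveratrol replicate 1 they were 691 and 538, without resveratrol replicate 2 they were 690 and 437, and without resveratrol replicate 3 the higher count was 639. Of the 19 carbonic anhydrase probe sets, 11 were tested, from 6 of the 8 genes, and 8 were too dim, among them all those of Car4 and Car8. Among the 11, 4 were called lower, 3 of them of Car3 and 1 of Car2, 1 was called higher, of Car5b, and 6 were not called. The dimmest of these Car3 probe sets, 1430584_s_at, was bright enough to be tested only through its control arrays. Its treated mean lay below the testing limit, an intensity of 20.3. The median log2 difference was -0.12 over the 11 and 0.01 over all probe sets tested. The 2 groups of arrays did not overlap for 6 of the 11, 1430584_s_at among them, and for 26.4% of all probe sets tested.

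Car3, a cytosolic form abundant in adipocytes and skeletal muscle with low hydratase activity, held the largest differences of the family. Its brightest probe set, 1449434_at, read 3097, 2653 and 3101 in control replicates 1 to 3 and 541, 828 and 658 in resveratrol replicates 1 to 3. The lowest control array thus lay far above the highest treated array. The means were 2950 ± 257 (SD, n = 3) and 676 ± 144, so that treated cells kept 22.9% of the control intensity. The fitted difference was -2.12 ± 0.13 (SE) on the scale of log2 of intensity plus 16, the 10th lowest of the 27022 tested. Less RNA in each cell and fewer cells carrying it cannot be told apart in such bulk samples.

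The second Car3 probe set, 1460256_at, gave nearly the same picture at a lower brightness. It read 718, 738 and 841 in the control cultures and 170, 205 and 175 in the treated cultures. Its mean went from 765 ± 66.0 (SD, n = 3) to 184 ± 19.0, which is 24.0% of control, and the fitted log2 difference was -1.97 ± 0.09 (SE), the 12th lowest. On both probe sets resveratrol replicate 1 was the lowest array and resveratrol replicate 2 the highest of the treated arrays. When arrays of brighter spikes were compared among themselves the first gave -2.37 and the second -2.0, and arrays of dimmer spikes gave -2.05 and -2.06. The brighter side holds 2 control arrays and 1 resveratrol array, the dimmer side 1 control array and 2 resveratrol arrays. Each such value, here and below, thus rests on a single array in 1 group and has no error.

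A pair of further Car3 probe sets, both designed from the same source sequence, lay near the dim end of the array. 1430584_s_at read 41.9, 28.8 and 49.0 in control and 4.50, 11.1 and 20.5 in treated cultures, so these groups too did not overlap. Its fitted log2 difference of -1.02 ± 0.24 (SE) is shrunk by the offset of 16 that was added before taking logs, and with an offset of 1 it was -1.83 ± 0.48. This probe set was called in 9 of the 13 alternative fits that tested it. The call was lost without resveratrol replicate 1 and without resveratrol replicate 2, without a filter on low values and without an intensity trend in the variance. Without control replicate 1 or control replicate 3, or among the brightest 40% of probe sets, the probe set was too dim to be tested. It was also left out where probe sets with IDs ending in _x_at, _s_at or _a_at were omitted. 1453588_at lay below the testing limit and read 7.08, 16.7 and 12.5 in control and 12.8, 4.50 and 0.90 in treated cultures, with overlapping groups. The mean of the tested Car3 probe sets gave a difference of -1.70.

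Car2, the highly active cytosolic form found in many tissues, was represented by 1 probe set, 1448752_at. It read 1294, 1164 and 1214 in the control cultures and 447.5, 537 and 465 in the treated cultures. The groups lay well apart, and each array of a group was close to its mean. The means were 1224 ± 65.3 (SD, n = 3) and 483 ± 47.4, so treated cells kept 39.5% of the control intensity, against 22.9% and 24.0% for the brighter Car3 probe sets. The fitted log2 difference was -1.32 ± 0.09 (SE), the 57th lowest of those tested. It was -1.42 within the arrays of brighter spikes and -1.25 within those of dimmer spikes.

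Car13, the third cytosolic form, had higher mean readings with resveratrol on all 3 of its probe sets, and none was called. The treated means were 108%, 108% and 127% of control, in the order given below. 1421307_at read 588, 630 and 582 in control and 631, 689 and 624 in treated cultures, so the groups overlapped. 1421308_at read 311, 330 and 316 in control and 339, 365 and 331 in treated cultures, and here the lowest treated array lay only just above the highest control array. The fitted log2 differences were 0.11 ± 0.08 (SE) for each of them. 1439620_at read 49.7, 54.0 and 73.3 against 71.4, 74.6 and 79.1, a difference of 0.29 ± 0.15 in which control replicate 3 reached into the treated range.

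**Figure D1:**
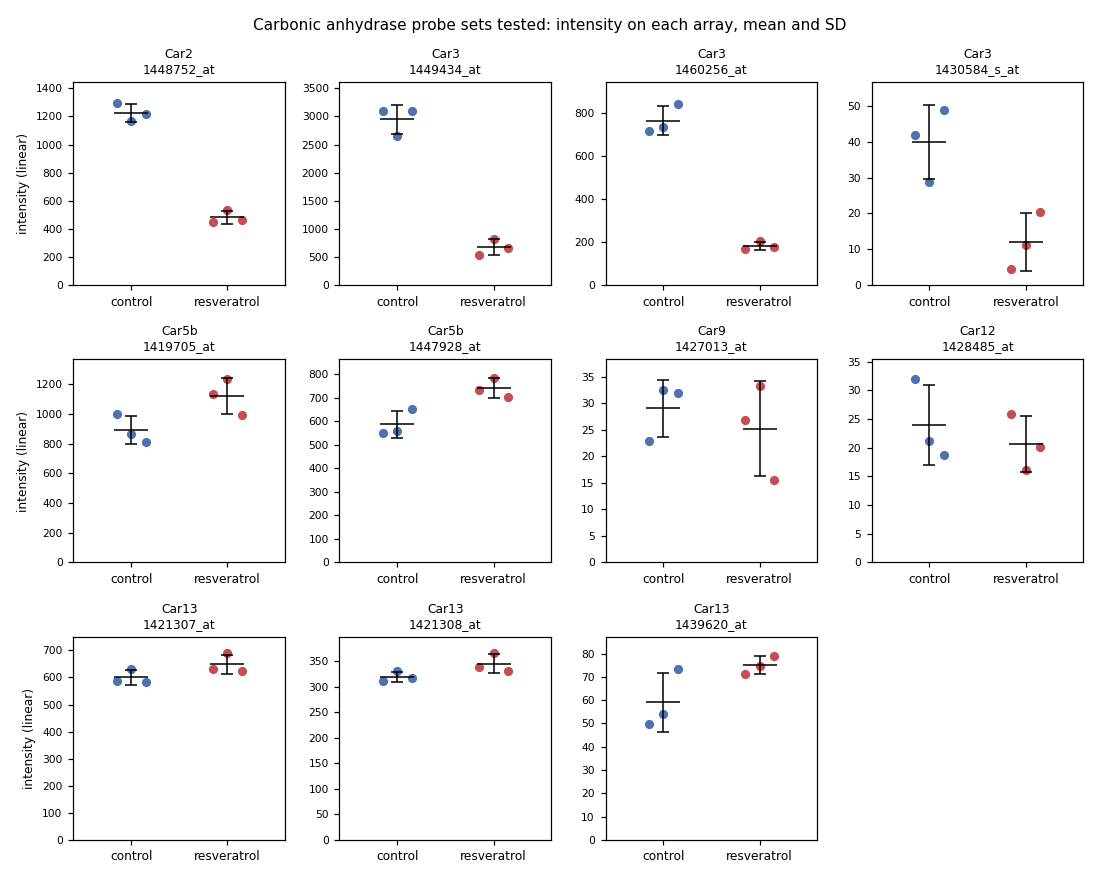
Intensity on a linear scale (vertical axis, starting at 0) of the 11 tested carbonic anhydrase probe sets, 1 panel each, in 3 control arrays (blue) and 3 resveratrol arrays (red), with replicates 1 to 3 from left to right and the mean and SD in black. The Car2 and brighter Car3 panels show groups far apart, with treated means of 483, 676 and 184, while the Car9, Car12 and 1421307_at panels show groups that overlap.

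Car2, Car3 and Car13 belong to 1 run of carbonic anhydrase genes. In the RefSeq gene table of assembly GRCm38.p6 the protein-coding genes of this stretch of chromosome 3 follow in the order Car13, Car1, Car3, Car2, with no other protein-coding gene between them. Car3 and Car2, the neighbours at one end, are the genes whose probe sets were called lower. Car1, a cytosolic form best known from red blood cells, read 24.2, 32.1 and 32.8 in control and 29.1, 20.8 and 31.5 in treated cultures, with a log2 difference of -0.09 ± 0.18 (SE) and an adjusted p of 0.84 in the limma fit. Thus the 4 neighbouring genes gave log2 differences of 0.11 (Car13, brightest probe set), -0.09 (Car1), -2.12 (Car3, brightest probe set) and -1.32 (Car2). Unlike the other values, that of Car1 was read near the testing limit of 20.3, where changes come out too small.

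Car5b, a mitochondrial form, was read by a pair of bright probe sets, and both were higher with resveratrol. 1419705_at read 996, 866 and 811 in control and 1134, 1235 and 994 in treated cultures, where control replicate 1 and resveratrol replicate 3 lay almost level, so the groups overlapped. 1447928_at read 550, 559 and 651 in control and 732, 786 and 703 in treated cultures, which did not overlap. The means went from 891 ± 95.0 (SD, n = 3) to 1121 ± 121 and from 587 ± 55.5 to 740 ± 42.3, which is 126% of control on both. The fitted log2 differences agree to within their errors, at 0.33 ± 0.10 (SE) and 0.33 ± 0.09.

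Only 1447928_at was called, and the call depended on the arrays used. It was lost when any one of control replicate 1, control replicate 2, resveratrol replicate 1, resveratrol replicate 2 or resveratrol replicate 3 was left out. It was also lost when the side of the spike split or the replicate number was made a block, without a filter on low values and without an intensity trend. The call was kept in 8 of 17 alternative fits. The other probe set, 1419705_at, was called in 5 of the 17: without control replicate 1, without resveratrol replicate 3, with quantile normalization, with array weights and among the brightest 40% of probe sets. Over these 17 alternative fits the difference of 1447928_at stayed between 0.29 and 0.40 and that of 1419705_at between 0.25 and 0.41. Among arrays of brighter and then of dimmer spikes the differences were 0.39 and 0.19 for 1447928_at and 0.28 and 0.44 for 1419705_at.

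The stretch before the Car5b start is shown because Car5b is the member with higher readings for which a promoter sequence was at hand, and because 1 octamer recurs in it. The 250 bases before the start, from RefSeq on GRCm38.p6 (chrX:164028011-164028260, minus strand, written in the direction of transcription), have a G and C content of 63.6%. Capitals mark GGCGTGGC, searched on both strands.
Car5b upstream: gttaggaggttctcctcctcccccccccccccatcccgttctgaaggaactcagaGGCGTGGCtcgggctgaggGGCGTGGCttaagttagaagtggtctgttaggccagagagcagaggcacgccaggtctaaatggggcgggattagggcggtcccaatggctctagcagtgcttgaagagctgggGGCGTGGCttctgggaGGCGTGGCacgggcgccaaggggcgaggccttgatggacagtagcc
The octamer stands 4 times, all on the strand shown, with its first base 195, 176, 62 and 46 bases before the start. Of 32851 promoter windows of this length, 3.72% hold it at least once and 4 hold 4 or more copies. The octamer was picked after reading this sequence, so its rarity is a description only, and no data here bear on a factor that binds it. The windows of Car4, Car9 and Car12 hold 0 copies.

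Car9 and Car12, transmembrane forms with their active site outside the cell, are known as genes that low oxygen induces, and both were barely above the limit of brightness for testing, an intensity of 20.3. Car9 read 22.9, 32.5 and 31.9 in control and 26.9, 33.2 and 15.6 in treated cultures. Its highest and lowest arrays were both treated ones, so the groups overlapped fully, and the log2 difference was -0.15 ± 0.20 (SE). Car12 read 31.9, 21.2 and 18.8 against 25.8, 16.1 and 20.1 on its brightest probe set, 1428485_at, with a difference of -0.12 ± 0.20. Neither was called in any alternative fit that tested it, and over those fits Car9 lay between -0.29 and 0.03. The remaining Car12 probe sets, 1447762_x_at and 1446517_at, had no array above 3.00 and were not tested.

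The Car9 promoter is shown for the short element through which low oxygen is known to act on it. The core of that element, ACGTG, was searched on both strands of the 250 bases before each start. In Car9 it occurs once, on the opposite strand, from 18 to 14 bases before the start, and is marked by capitals (chr4:43506996-43507025, plus strand, RefSeq on GRCm38.p6).
Car9 upstream: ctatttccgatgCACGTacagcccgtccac
Among all 32851 windows 16.6% hold this core, so a match is common. The windows of Car4, Car5b and Car12 do not hold these letters.

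Car4, held to the outer face of the plasma membrane by a lipid anchor, was too dim to be tested. Its brighter probe set, 1418094_s_at, read 23.6, 25.5 and 16.5 in control and 8.50, 8.20 and 14.6 in treated cultures, and these groups did not overlap. The mean of 16.2 over all arrays placed it as the brightest of the 8 untested probe sets of these genes, while the dimmest of the 11 tested ones, of Car12, had 22.3. 1448949_at read 22.6 in control replicate 1 and at most 4.70 on all other arrays. Car8, the related protein without catalytic activity that binds the inositol trisphosphate receptor, read between 0.20 and 16.5 over its 3 probe sets and all arrays, with overlapping groups on each.

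**Figure D2:**
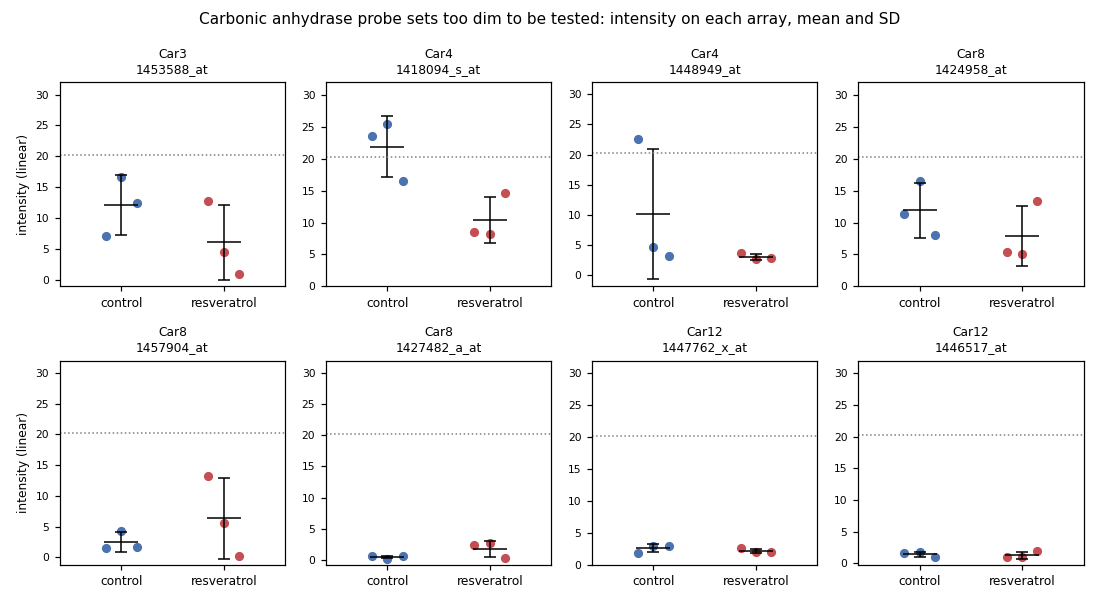
Intensity on a linear scale of the 8 carbonic anhydrase probe sets that were too dim to be tested, in 3 control arrays (blue) and 3 resveratrol arrays (red), with the mean and SD in black and the testing limit of 20.3 as a dotted line. Of these, only 1418094_s_at of Car4 has groups that do not overlap, with control readings of 16.5 to 25.5 and treated readings of 8.20 to 14.6.

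Resveratrol replicate 2 was the highest of the treated arrays on 8 of the 11 tested carbonic anhydrase probe sets, which share genes, whether they were lower (Car2 and the brighter Car3 probe sets) or higher (both of Car5b) than control, and it was the highest on 29.1% of all probe sets tested. The lowest treated array was replicate 1 on 5 of the 11, replicate 3 on 5 and replicate 2 on 1. Over all probe sets tested it was replicate 1 on 30.7%, replicate 3 on 33.4% and replicate 2 on 36.0%. Resveratrol replicate 2 lies on the dimmer side of the spike split. Without it the brightest Car3 probe set had -2.27, Car2 had -1.39 and the Car5b probe sets had 0.25 and 0.29.

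Expression profiles most like those of Car3 and Car2 were sought among 12624 other genes, by the root mean square difference of centred log2 values over the 6 arrays. Nearest to Car3 were Apoc1, an apolipoprotein, at 0.12, Klb, the co-receptor for FGF21, at 0.13 and the pyruvate dehydrogenase kinase gene Pdk1 at 0.13. Nearest to Car2 were C1qtnf12, a secreted protein of the C1q and TNF-related family, at 0.06, Tex19.1 at 0.08 and the mitochondrial carrier gene Slc25a34 at 0.10. C1qtnf12 went from a mean intensity of 447 to 182, and Apoc1 from 1326 to 274. The measure includes the difference between the groups by which these genes were chosen, so it is a description only.

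The rest of the carbonic anhydrase family, which is what remained once the 8 genes had been chosen with these values known, was fitted together with them and is no independent comparison. Of 10 genes, which include the receptor phosphatases Ptprg and Ptprz1 with their carbonic anhydrase-like domains, 6 were bright enough to be tested. Among these, Car1, Car14 and Car15 read near the testing limit of 20.3, with control means of 29.7, 30.9 and 36.4. Changes at that level come out too small, so the lack of a call says little about them. Limma called 0 of the 6 in either direction, with 0 at an unadjusted p below 0.05. Among all 12630 genes tested by their brightest probe set, 10.5% were called. Car11, a related protein without catalytic activity, had 109 ± 18.7 (SD, n = 3) and 137 ± 54.2, a log2 difference of 0.22 ± 0.24 (SE, limma adjusted p = 0.66). Car7, a cytosolic form best known from the brain, had 102 ± 33.4 and 83.6 ± 14.8, a difference of -0.22 ± 0.21 (limma adjusted p = 0.618). The median of the 6 was -0.05, and that of all genes 0.02. Car5a, the other mitochondrial form, was too dim, at 2.57 to 7.0 in control and 5.20 to 21.5 in treated cultures.

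**Figure D3:**
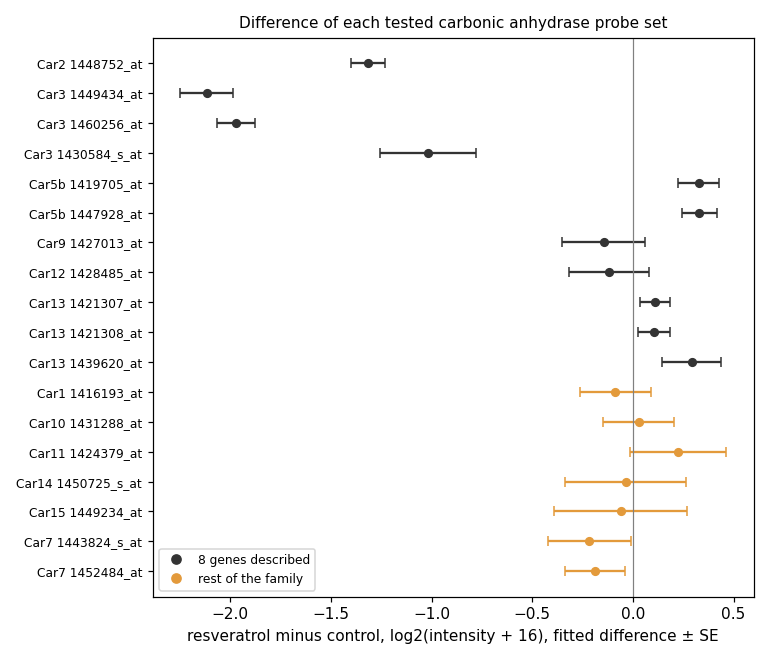
Fitted difference between resveratrol and control (horizontal axis, log2 of intensity plus 16, bars are SE) for the 11 tested probe sets of the 8 genes described (dark) and the 7 tested probe sets of the rest of the family (orange). Car2 and Car3 lie between -2.12 and -1.02, Car5b and Car13 between 0.11 and 0.33, and the rest of the family between -0.22 and 0.22.

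Genes whose products move or use bicarbonate and protons were taken as lists of related genes, each gene by its brightest tested probe set. Among all genes tested, 5.21% were called lower and 5.32% higher. Of 9 tested bicarbonate and anion exchangers 1 fell, 0 rose and 8 did not pass, with a median of 0.05. Slc4a4, the sodium-bicarbonate cotransporter NBCe1, fell from 99.7 ± 6.71 (SD, n = 3) to 52.8 ± 5.36, a log2 change of -0.75 ± 0.13 (SE) with a limma adjusted p of 0.00458, and all 4 of its tested probe sets were lower, 2 of them called. Slc4a2, a chloride-bicarbonate exchanger, had 0.05 ± 0.08 (limma adjusted p = 0.814) and the sulfate carrier gene Slc26a2 -0.03 ± 0.14 (limma adjusted p = 0.94).

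Of 11 tested sodium-proton exchanger genes, their regulators and lactate carriers, 2 fell, 2 rose and 7 did not pass, with a median of 0.16. Bsg, the chaperone that brings lactate carriers to the plasma membrane, fell from 3326 ± 313 (SD, n = 3) to 1964 ± 57.6, a log2 change of -0.75 ± 0.09 (SE) with a limma adjusted p of 0.000446. Slc16a1, the lactate carrier MCT1, fell by 0.51 on the log2 scale (limma adjusted p = 0.00275). The scaffold genes Slc9a3r1 and Slc9a3r2 rose by 0.55 and 0.41, but 2 of 6 Slc9a3r2 probe sets had the opposite sign. Of the 3 Slc9a3r1 probe sets 1 was called. When probe sets with IDs ending in _x_at, _s_at or _a_at were left out, endings that mark probes shared between transcripts of one gene or between genes, 1 of the 4 calls was left. Bsg, read by a single tested probe set of the _a_at kind, was not tested there. The exchanger genes Slc9a8 and Slc9a5 had 0.26 and 0.16 and did not pass.

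Among the genes of carboxylases, the carbamoyl phosphate synthetase genes Cps1 and Cad, whose products also use bicarbonate, and the bicarbonate-sensing cyclase gene Adcy10, all 10 of them tested, 5 fell, 0 rose and 5 did not pass, with a median of -0.60. Mccc2 and Mccc1, the subunits of methylcrotonyl-CoA carboxylase, changed by -0.88 ± 0.14 (SE, limma adjusted p = 0.00273) and -0.64. Pccb and Pcca, the subunits of propionyl-CoA carboxylase, changed by -0.65 and -0.55, although a second Pcca probe set had -0.05 and was not called, and of the 2 Mccc1 probe sets 1 was called. Acaca, the cytosolic acetyl-CoA carboxylase, changed by -0.64 (limma adjusted p = 0.000678). The other of its 2 probe sets had -0.42 and was not called. Pcx, the pyruvate carboxylase that mitochondrial carbonic anhydrase is known to supply, had 4737 ± 449 (SD, n = 3) and 3822 ± 184, a difference of -0.31 ± 0.09 (SE) that did not pass (limma adjusted p = 0.0735). Cad, which begins pyrimidine synthesis, had 0.17 and did not pass.

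The list of low-oxygen response genes is set beside Car9 and Car12. Of 19 tested genes 13 fell, 0 rose and 6 did not pass, with a median of -0.63. P4ha1, Pdk1, Egln3, Ankrd37 and Bnip3 changed by -1.30, -2.13, -1.59, -1.87 and -1.32. Slc2a1 and Epas1, the brightest genes that did not pass, had -0.03 and -0.09, although a second, dimmer Epas1 probe set was called lower at -0.35. Car9 with -0.15 ± 0.20 (SE) and Car12 with -0.12 ± 0.20, read near the dim end of the array, lie above that median.

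The list of adipocyte genes is set beside Car3. Of 16 tested genes 8 fell, 0 rose and 8 did not pass, with a median of -0.30. The count was 5 without control replicate 1, 3 without control replicate 2, 3 without resveratrol replicate 2 and 4 without resveratrol replicate 3. Slc2a4, which encodes the GLUT4 glucose carrier, and Gpd1, which makes glycerol phosphate for triglycerides, changed by -1.19 and -1.07. Cidec, Retn and the fatty acid translocase gene Cd36 changed by -0.57, -0.54 and -0.44, while Fabp4 and Lpl had -0.22 and -0.19 and did not pass. Probe sets of a gene differed here: 2 of the 4 tested Fabp4 probe sets were called lower, the lowest at -0.67, and of the 3 Gpd1 probe sets 2 were called and another had -0.04. The brighter Car3 probe sets, at -2.12 and -1.97, lie below all 16.

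Markers of other cells that carry carbonic anhydrases were low in both groups. Of 8 skeletal muscle markers 3 were bright enough to be tested. The summed intensity of all 8 lay between 177 and 210.3 in control and between 187 and 219 in treated cultures. Ckm, the brightest, had 71.6 ± 4.76 (SD, n = 3) and 91.7 ± 17.1. Myod1, Acta1, Myh1 and Tnnt3 also had higher treated means, and Myog, Myh4 and Mylpf lower ones. Myog, too dim to be tested, read 4.0 to 18.1 and 3.20 to 4.20. The 4 red blood cell markers on the array were all too dim, with sums of 28.2 to 37.5 and 37.7 to 39.9. The 5 endothelial markers summed to 82.7 to 109 and 87.2 to 123. The 7 macrophage markers summed to 280.1 to 354 in control and 377.5 to 431 in treated cultures, ranges that do not overlap. Cd14, the brightest, had 86.3 ± 9.14 (SD, n = 3) and 126 ± 13.0, and of those tested only Cd14 was called. Lyz2, Csf1r, Cd68 and Mpeg1 also had higher treated means. Adgre1, with 42.4 and 40.6, and Ptprc, with 10.6 and 6.40, had lower ones. Whether this difference in summed intensity bears on the carbonic anhydrase values was not tested.

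**Figure D4:**
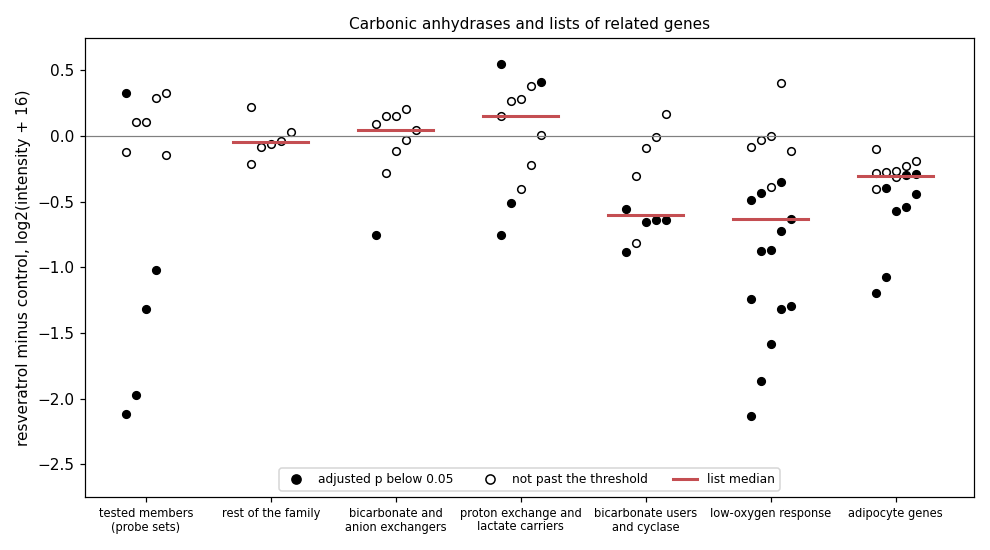
Difference between resveratrol and control (vertical axis, log2 of intensity plus 16) for the 11 tested carbonic anhydrase probe sets and for the tested genes of 6 lists of related genes, each point a probe set or gene. Filled points passed an adjusted p of 0.05 in the limma fit, and red lines are list medians, which lie at -0.05, 0.05, 0.16, -0.60, -0.63 and -0.30 from left to right.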

How the data were processed

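The authors deposited 1 table of intensities on a linear scale, with 45101 probe sets on 6 arrays; the mean after trimming is 150 in each column, as read from the values, so each array carries 1 scaling factor. The summary software and genome build are not given in the sources used here. Of the probe sets, 34945 name 1 gene, 932 several and 9160 none, besides 64 controls, and only those naming 1 gene are named. Member symbols matched RefSeq GRCm38.p6 by Entrez number.

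Values became log2(intensity + 16), so that changes at the dim end come out too small. Testing was limited to the upper 60% by mean of these values, 27022 probe sets, by limma 3.58.1 in R 4.3.3 (lmFit, eBayes with an intensity trend, 2-sided, Benjamini-Hochberg adjustment, threshold 0.05) on all 6 arrays without covariates. A gene in a list is represented by its brightest tested probe set. The fit was tested on simulated data. The number of arrays limits the precision. Figures were made with matplotlib 3.10.9 under Python 3.11.15.

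The members, the lists and the rule for named genes were chosen with earlier results of these data known. Named are all member probe sets, of each list up to 5 called genes by smallest p and up to 2 of the brightest others, the brightest marker of some cell types, and the 3 genes of nearest profile. Alternatives were quantile normalization, offsets of 1 and 64, other filters, other variance models, array weights, replicate and spike-signal blocks, averaging the probe sets of a gene, omitting probe sets with IDs ending in _x_at, _s_at or _a_at and omitting each array. Promoter sequences are those of RefSeq GRCm38.p6, which held Car4, Car5b, Car9 and Car12.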

Additional observations from a re-analysis of the deposited data

How the results depend on the processing

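Over all probe sets, 1141 were called lower and 1068 higher, and these counts were 747 and 649 without a filter, 527 and 334 without an intensity trend, 659 to 974 and 437 to 982 with 1 array left out, and for the higher count 627 without probe sets ending in _x_at, _s_at or _a_at. The count of carbonic anhydrase probe sets called lower was 3 to 4 under every alternative run. Where it was 3, the dim Car3 probe set 1430584_s_at was either not called or not tested. The count called higher was 2 with quantile normalization, with the brightest 40% of probe sets and with array weights, 0 without a filter, without an intensity trend and with the spike-signal split as a block, and 0 to 1 with 1 array left out. With the replicate number as a block 4 were called lower and 0 higher. Same-numbered arrays deviated from their group means with correlations of -0.06, -0.02 and 0.09. The labels do not say whether the numbers pair the cultures, and so few arrays cannot decide it. The Car3 difference was -1.70 with the mean of its probe sets, which includes a dim one, and -2.37 within the arrays of brighter spikes. It was -2.27 to -1.97 with 1 array left out, and Car2 was -1.39 to -1.27. Proton exchange and lactate genes had 4 calls, and 1 without probe sets of those endings. Adipocyte genes had 8 calls, 4 without a filter, 2 without an intensity trend and 3 to 11 with 1 array left out. The causes of these shifts were not tested. The other lists kept counts within 1.5 times the main one. Probe sets near the dim end of the array, such as those of Car1, Car4, Car8, Car9, Car12, Car14 and Car15, have only a weak signal behind each value.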
